A study of Cervus nippon with 40 samples.

Results

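The miR-26 family was described in male Shuangyang Sika Deer, across 10 organs, which were the brain, lung, spleen, heart, liver, kidney, adrenal, testes, antler and skeletal muscle. The members were all miRNAs whose name was bta-miR-26 followed by a letter, where bta stands for the bovine miRNAs to which the reads were matched. Of 499 names listed in the 40 libraries, of which 306 were known miRNAs, 2 met this rule, bta-miR-26a and bta-miR-26c, and no bta-miR-26b was listed. Each organ had 1 small RNA library per development stage. The 4 stages were juvenile deer of 1 year, adolescence deer of 3 years, adult deer of 5 years and aged deer of 10 years, and no treatment or altered genotype was given for any deer. The RNA of 3 deer was pooled for each library, and with 12 deer in the study all organs of a stage were taken from the same 3 animals. Levels are given as RPM, the reads of a miRNA in each 1000000 miRNA reads of its library. A lower level in a tissue cannot be told apart from a smaller share of the cells that hold the miRNA.

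A miRNA is a short RNA that guides the Argonaute protein to partly matching sites in mRNAs, mostly through the bases near its 5′ end called the seed, and the mRNA is then translated less or degraded. The members of the miR-26 family share one seed, and in mammals they are processed from introns of the CTDSP phosphatase genes. The family is abundant in many mammalian tissues and is known for holding back growth, in part through EZH2, the enzyme of the Polycomb complex that methylates histone H3 on lysine 27.

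The 2 names did not give separate measurements. Over the 40 libraries bta-miR-26a held 1536635 reads and bta-miR-26c 1536583. Their reads were equal in 22 libraries, and in the other 18 libraries miR-26a was ahead by at most 11 reads. The names thus carried nearly the same reads, and the family was counted once, as miR-26a. In all, 7 pairs of names were doubled in this way, among them let-7b with miR-3596 and miR-199a-3p with miR-3604, so that the deposited total of a library holds part of its reads more than once.

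Depth ran from 41866 to 7759033 miRNA reads per library, with a median of 744715. The lowest depths were in the testes of adolescence, adult and aged deer. miR-26a had reads in 40 of 40 libraries, and sampling of reads added little to its error. Even in the aged testes, the shallowest library, its share was 0.860% with a 95% Wilson interval from 0.776% to 0.953%. Such intervals cover counting error only. No organ had a repeat library at the same stage, so the spread within an organ joins stage, animals and library preparation. The p values below rest on the part of that spread that the terms of each model leave. The organ labels were checked against miRNAs known to be high in an organ. miR-124a, the neuronal miRNA, was highest in brain (mean 32291 RPM against 160 RPM in testes, the next organ), miR-208b, from a cardiac myosin gene, was highest in heart, and miR-199a-3p was highest in antler. The liver marker miR-122, the neuronal miR-9, the testes marker miR-34c, the erythrocyte miR-144 and the myeloid miR-223 were not listed in any library. The other testes marker, miR-449a, had 7 reads in all and was 0 in the juvenile, adult and aged testes. miR-150 (220 RPM) and miR-142-5p (755 RPM) had their highest means in spleen. The median of miR-142-5p was 81.0 RPM in spleen and 127 RPM in antler. No lung marker was in the list, so lung was not checked, and the juvenile testes were not borne out. Most libraries were nearest to another library of their own organ, but 3 were not. Nearness was Pearson's r of log2 levels, scaled by TMM as described below, over the 124 known miRNAs tested. The adolescence lung had the aged spleen as its nearest library, and the reverse held too (r = 0.950). The library nearest to the juvenile testes was the juvenile adrenal (r = 0.921).

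miR-26a was one of the most abundant miRNAs in every organ. It made up 2.93% of the deposited miRNA reads of the 40 libraries, doubled names included. Its median level was 20431 RPM, and the highest library lay 73.5-fold above the lowest. Among the known miRNAs, with doubled names counted once, it was first in 3 libraries, within the first 5 in 19 and within the first 10 in 33. Its lowest rank was 15, in the aged testes.

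In lung, miR-26a stood at 48127, 325107, 100298 and 35235 RPM in the juvenile, adolescence, adult and aged library. Lung had the highest mean, 127192 ± 134909 RPM (SD, n = 4), though 61220 RPM without the adolescence library, and miR-26a ranked first in the adolescence lung and second in the other 3. The aged lung, the lowest of the 4, still exceeded every library of heart, liver, antler and skeletal muscle.

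In brain the values, in the same order of stages, were 289143, 4516, 41082 and 26880 RPM. The juvenile brain was far above the rest and the adolescence brain was far below them, and the mean was 90405 ± 133344 RPM (SD, n = 4) with the juvenile library and 24159 RPM without it. In spleen the values were 18402, 26696, 11966 and 243240 RPM, where the aged library alone left the range of the other 3 (mean 75076 ± 112271 RPM, SD, n = 4, and 19021 RPM without the aged library).

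Testes, kidney and adrenal held middle levels, with less miR-26a in the older deer. The testes had 99250, 48490, 13987 and 8599 RPM, the kidney 79884, 55939, 16688 and 16772 RPM, and the adrenal 43485, 37672, 27387 and 16884 RPM. The heart followed the same direction at a lower level, with 25699, 24115, 13066 and 6813 RPM.

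Liver and antler were among the low organs. The liver had 14399, 10882, 21616 and 11157 RPM, the narrowest spread outside skeletal muscle, and the antler, a bony organ regrown each year from cartilage, had 7498, 19247, 4424 and 31968 RPM with no order by age.

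Skeletal muscle had the lowest and the most even RPM of all organs, with 8670, 7470, 6690 and 5760 RPM (mean 7147 ± 1233, SD, n = 4). Its libraries were taken up by miR-1, the miRNA of striated muscle, which held 91.1% to 92.9% of their reads. With miR-1 left out of the total, the same 4 libraries had 107721, 90900, 93568 and 64685 RPM of miR-26a. This range lay above all libraries of liver and antler and overlapped that of lung. miR-26a was the fourth most abundant miRNA in each of the muscle libraries.

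**Figure D1:**
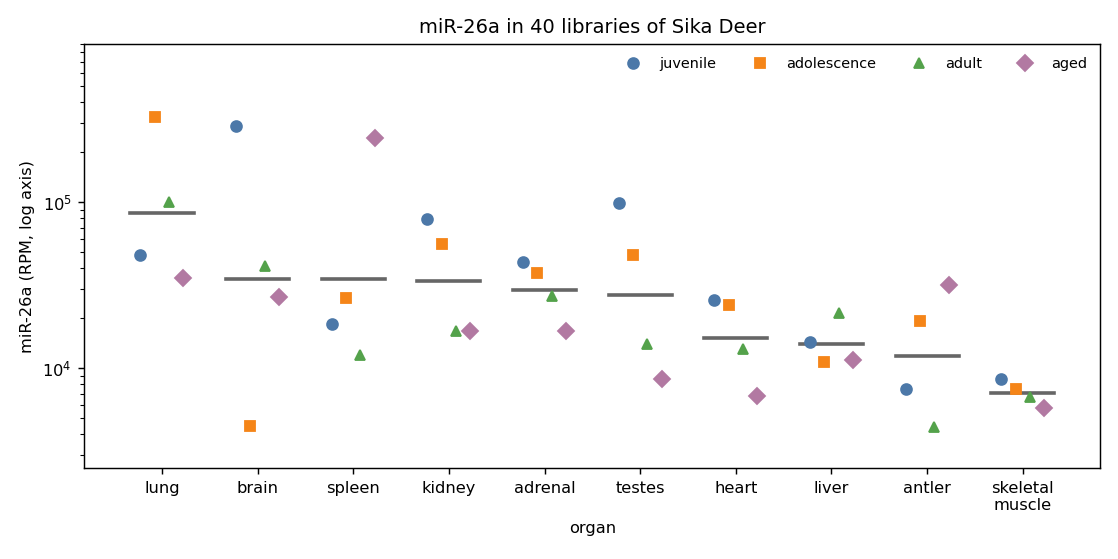
Level of miR-26a in each of the 40 libraries, in RPM on a log axis, with organs from left to right by their geometric mean (grey line) and stages by colour and shape. The adolescence lung, the juvenile brain and the aged spleen lie between 243240 and 325107 RPM, all other libraries lie at or below 100298 RPM, and the skeletal muscle libraries lie together between 5760 and 8670 RPM.

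Organs were compared in 1 model of all libraries. The levels were rescaled by TMM, which sets the factors of the libraries so that most miRNAs keep the same level between them and a single abundant miRNA weighs less. limma was then fitted to log2(TMM-scaled RPM + 1) with organ and stage as terms, over the 124 known miRNAs that reached 10 reads in 4 or more libraries. A contrast was called at an adjusted p (Benjamini-Hochberg over all miRNAs tested) below 0.01 and a log2 difference above 1 in size. miR-26a differed between organs (F test of limma, adjusted p = 0.00100), as did 75.8% of the miRNAs tested. With libraries scaled to their total miRNA reads in place of TMM, the adjusted p was 0.0228 and the call was lost. The F test was also lost without skeletal muscle (adjusted p = 0.0757), without the adolescence stage (0.0126) and without the adult stage (0.127).

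One organ of 10 was called against the mean of the other 9. Skeletal muscle was higher by 3.06 on the log2 scale (SE 0.72, adjusted p = 6.77e-04) with TMM scaling, and it was lower, by -1.92 (adjusted p = 0.00821), with scaling to total miRNA reads. The direction of miR-26a in muscle was therefore set by the scaling. Under TMM 24.2% of the miRNAs tested were called higher in muscle, and under total reads 82.3% were called lower, with a median over all miRNAs tested of -3.61. With miR-1 left out before TMM scaling the muscle difference was 2.25 (adjusted p = 0.00339). The TMM call was also lost without the adult muscle library (2.65, adjusted p = 0.0130).

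Lung was higher than the other 9 organs by 2.10 on the log2 scale (SE 0.72) and kept this size with total reads (2.09), but its adjusted p of 0.0345 missed the threshold. In the edgeR quasi-likelihood test on recovered reads the lung difference was 2.26 and was called (adjusted p = 0.00732), as it was by limma without the aged spleen (2.20, adjusted p = 0.00625). For comparison, 6.45% of the miRNAs tested were called higher in lung by limma. Liver was lower by -2.08 (adjusted p = 0.0215, with 11.3% called lower) and missed the threshold too, though it was called by DESeq2 (-2.41, adjusted p = 0.00186) and by limma without the adolescence brain (-2.19, adjusted p = 0.00671). The other 7 organs lay between 0.59 in brain and -1.40 in testes on the log2 scale, with adjusted p of 0.134 or more. In heart, kidney, adrenal and testes the sign of the difference turned with scaling to total reads. Without the 3 libraries that lay nearest to another organ, lung stood at 1.65 (adjusted p = 0.0789), spleen at -1.09 (adjusted p = 0.231) and muscle at 2.82 (adjusted p = 1.06e-04).

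By mean log2 level after TMM scaling the organs followed each other as skeletal muscle, lung, brain, heart, spleen, kidney, adrenal, antler, testes and liver. Neighbours in this order differed by 0.09 to 1.36 on the log2 scale (SE 0.97), and the spread was too wide to separate any of the 9 pairs (adjusted p between 0.281 and 0.986). The order was taken from the same values, so these pairs only describe the spread.

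**Figure D2:**
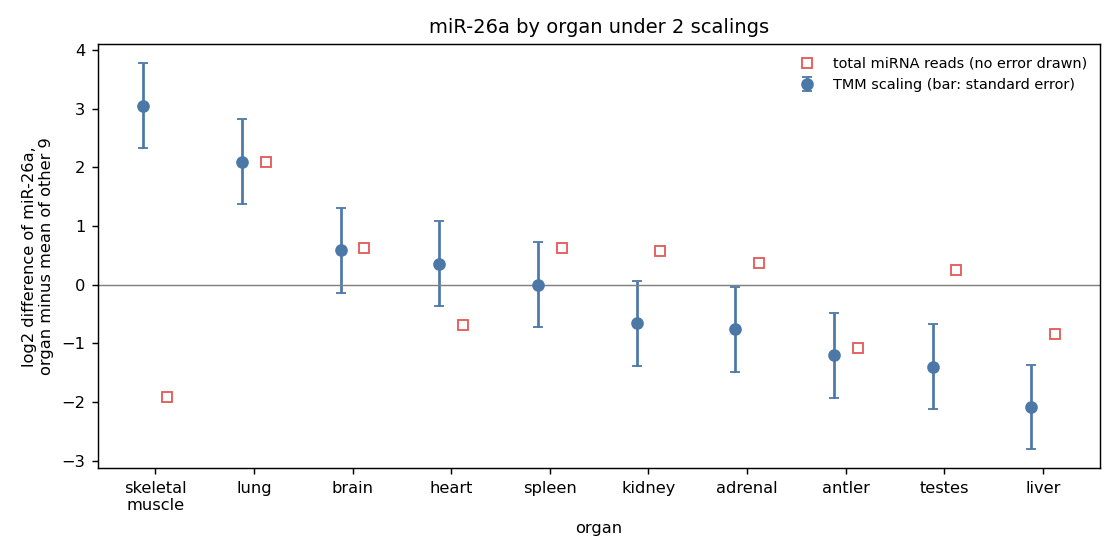
Log2 difference of miR-26a between each organ and the mean of the other 9, with TMM scaling (filled circles, bars show the standard error) and with scaling to total miRNA reads (open squares, no error drawn). Skeletal muscle turns from 3.06 to -1.92 between the scalings, whereas lung stays at 2.10 and 2.09.

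Organ explained less of the variation of miR-26a than of the median miRNA tested, though with TMM scaling its organ share was only the 42nd lowest of 124. On the TMM-scaled log2 values, organ took 51.5% of the sum of squares of miR-26a, stage 6.70% and the rest 41.8%. The medians over all miRNAs tested were 63.5%, 5.86% and 28.5%. On RPM as deposited the organ share of miR-26a was 39.98% against a median of 81.0%. The SD of miR-26a within organs was 1.53 on the log2 scale against a median of 1.05, the 11th highest of 124.

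In 4 organs 1 library was far above the rest, meaning at least 2-fold over the highest of the other 3 on deposited RPM. These libraries were the juvenile brain, the adolescence lung, the aged spleen and the juvenile testes. Of these 4, the adolescence lung, the aged spleen and the juvenile testes were also the 3 libraries nearest to another organ, and whether libraries were exchanged or mixed was not tested. With 1 library per organ and stage, the spread between repeats of such a library is unknown.

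The aged spleen stood 9.11-fold over the next spleen library. In it miR-26a took 24.3% of the deposited total (95% Wilson interval 24.2% to 24.5%), or 36.0% with doubled names counted once. It ranked first there, whereas it ranked 6 or 7 in the younger spleens. In the same library 26 of 124 tested miRNAs, or 21%, exceeded the other spleens by 2-fold, and the ratio of miR-26a was the 7th highest. miR-142-5p, a miRNA of blood-forming cells, had 2849 RPM there against 6.62 to 104 RPM in the younger spleens. miR-150, of mature lymphocytes, went the other way, with 31.1 RPM against 256 to 325 RPM. The sum of the 3 listed blood cell miRNAs was 2929 RPM in the aged spleen and 274 to 434 RPM in the others, with none at 0 in the aged spleen. miR-1 had 52057 RPM against 1782 to 7564 RPM, while miR-133a, which accompanies miR-1 in muscle, had 1839 RPM against 3388 to 5650 RPM. The part of these differences in the level of miR-26a was not tested. With miR-1 left out of the total, the ratio of the aged spleen was 9.54.

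The juvenile brain stood 7.04-fold over the next brain library. miR-26a took 28.9% of its deposited total (interval 28.8% to 29.0%), or 46.5% with doubled names counted once, and ranked first. In that library 12.1% of the miRNAs tested passed 2-fold, of which miR-26a had the 4th highest ratio. miR-124a was 57640 RPM in this library, the highest of the 4 brains. The adolescence brain differed in the other direction, with miR-26a 5.95-fold below the next lowest brain. let-7b took 41.6% of the reads of that library, and miR-124a stood at 2445 RPM against 31967 to 57640 RPM in the other brains.

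The adolescence lung stood 3.24-fold over the next lung library, and 18.5% of the miRNAs tested passed 2-fold in it, where the ratio of miR-26a was the 13th highest of 23. miR-26a took 32.5% of its reads (interval 32.4% to 32.6%), the highest share of any library. With doubled names counted once, the share was 56.9% there, 46.5% in the juvenile brain and 36.0% in the aged spleen. As in the aged spleen, miR-142-5p was high in this lung (369 RPM against 18.2 to 91.2 RPM), miR-150 was low (13.8 RPM against 31.3 to 90.2 RPM) and miR-1 was high (4815 RPM against 969 to 1047 RPM). The 3 blood cell miRNAs summed to 392 RPM in this lung, of which miR-142-5p was 369 RPM, and to 62.1 to 181 RPM in the others. In the juvenile brain the sum was the lowest of the brains, 31.0 RPM against 36.9 to 60.1 RPM, though miR-142-5p alone was the highest there (26.7 RPM). In the juvenile testes the sum was 192 RPM, against 23.9 to 654.5 RPM in the other testes. miR-1 was also high in the juvenile brain, with 0.391% of the deposited reads against 0.0968% to 0.187% in the other brains. In the juvenile testes it was low, with 0.339% against 0.890% to 4.86%. The part of these miRNAs in the level of miR-26a was not tested.

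The juvenile testes stood only 2.05-fold over the adolescence testes, close to the limit, and 11.3% of the miRNAs tested passed 2-fold in the same library, where miR-26a was the 13th of 14. With miR-1 left out the ratio was 1.95, below the limit, and with TMM scaling it was 4.33. TMM scaling gave 12.8 for the juvenile brain, 3.26 for the adolescence lung and 9.97 for the aged spleen, so these 3 stayed past the limit, and it also brought the adolescence heart (2.71) and the aged antler (2.21) past it. In the other organs, on RPM, the highest library exceeded the next by 1.66-fold in antler, 1.50-fold in liver, 1.43-fold in kidney, 1.16-fold in skeletal muscle, 1.15-fold in adrenal and 1.07-fold in heart.

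No difference of miR-26a between the stages as a whole was called. The median over 10 organs was 34592 RPM in juvenile, 25406 RPM in adolescence, 15338 RPM in adult and 16828 RPM in aged deer. The ranges overlapped widely, from 7498 to 289143 RPM in juvenile and from 5760 to 243240 RPM in aged deer. The F test of stage gave an adjusted p of 0.353 (limma, all 40 libraries), while 4.84% of the miRNAs tested passed 0.01.

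The comparison of mature with younger deer was the one that the study named for heart, kidney and adrenal, so it was made there first. The study named these organs after clustering the miRNA levels of these same libraries, so the p value below does not come from an independent choice. In each of these organs both older libraries, adult and aged, had less miR-26a than both younger ones, juvenile and adolescence. The mean of the younger libraries exceeded that of the older by 4.06-fold in kidney, 2.51-fold in heart and 1.83-fold in adrenal on RPM. On the TMM-scaled log2 values of all 40 libraries these were 3.82-fold, 10.9-fold and 3.14-fold, so that heart passed kidney. In limma over these 12 libraries, scaled among themselves and with organ as a term, miR-26a fell by 1.74 on the log2 scale (SE 0.32, adjusted p = 5.03e-04). It was 1 of 13 names, or 12.3% of 106 tested, that were called lower, while 22 were called higher and the median over all tested was 0.15. miR-26c, which holds the same reads, was another of the 13.

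The fall was called in 27 of 28 alternatives, of which 2 could not change it, 1 leaving these 12 libraries as they were and 1 taking miR-26c for miR-26a. It was -1.44 with total reads (adjusted p = 0.00123) and -1.79 with miR-1 left out (adjusted p = 3.59e-04). The latter bears on heart, where miR-1 held 57.8% and 81.5% of the reads of the younger libraries and 31.6% and 15.1% of the older. Without the aged stage the difference was -1.32 and the call was lost (adjusted p = 0.0204). The younger and the older deer were 2 groups of 3 animals each, and every group gave all 3 organs. The model took the 12 libraries as independent apart from organ. The p value is therefore too small wherever something shared by a stage moves several organs together. Over all organs, deviations from organ means correlated at 0.141 on average within a stage and -0.045 between stages.

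Beyond these organs the same order was seen in testes, 6.54-fold, and skeletal muscle, 1.30-fold, on RPM. In muscle the older and younger libraries overlapped after TMM scaling. Such an order was found for 37.9% of the miRNAs tested in kidney, 35.5% in testes, 31.5% in adrenal, 27.4% in skeletal muscle and 8.06% in heart, so on RPM it was uncommon within 1 organ only in heart. There the smaller share of miR-1 in the older libraries leaves a larger share to other miRNAs. No such shares were counted after TMM scaling or without miR-1. In heart, kidney and adrenal at once the order was found for 9 names (7.26%), which were miR-26a and miR-26c, miR-1, miR-7, miR-33a, miR-142-5p, miR-671, miR-1388-5p and miR-2285f. These were named after their values were seen.

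In 4 organs miR-26a was lower at each later stage on RPM, adrenal, heart, skeletal muscle and testes, as were 6.45%, 3.23%, 10.5% and 10.5% of the miRNAs tested. Antler, brain, liver, lung and spleen showed overlapping younger and older libraries. In spleen the older mean was above the younger by 5.66-fold, through the aged library alone.

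In the other 7 organs together the difference of older and younger libraries was -0.41 on the log2 scale (SE 0.53, adjusted p = 0.713, limma, 28 libraries), and 0% of 112 miRNAs were called lower by limma, with 21 at an unadjusted p below 0.05 in either direction. edgeR called 2 miRNAs lower there and DESeq2 5, miR-26a not among them. The contrast between the 3 organs and the other 7 was tested as an interaction over all 40 libraries. With all 40 libraries scaled together it was -1.96 (SE 0.86, unadjusted p = 0.0286 and adjusted p = 0.144 by limma), -1.06 with total reads, -1.13 with miR-1 left out and -0.90 without the aged stage, so the fall in heart, kidney and adrenal was not shown to differ from that elsewhere. Of 124 miRNAs, 32 (25.8%) had an unadjusted p below 0.05 in this interaction and none was called by limma or edgeR, whereas DESeq2 called 2 higher and 3 lower, again without miR-26a.

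**Figure D3:**
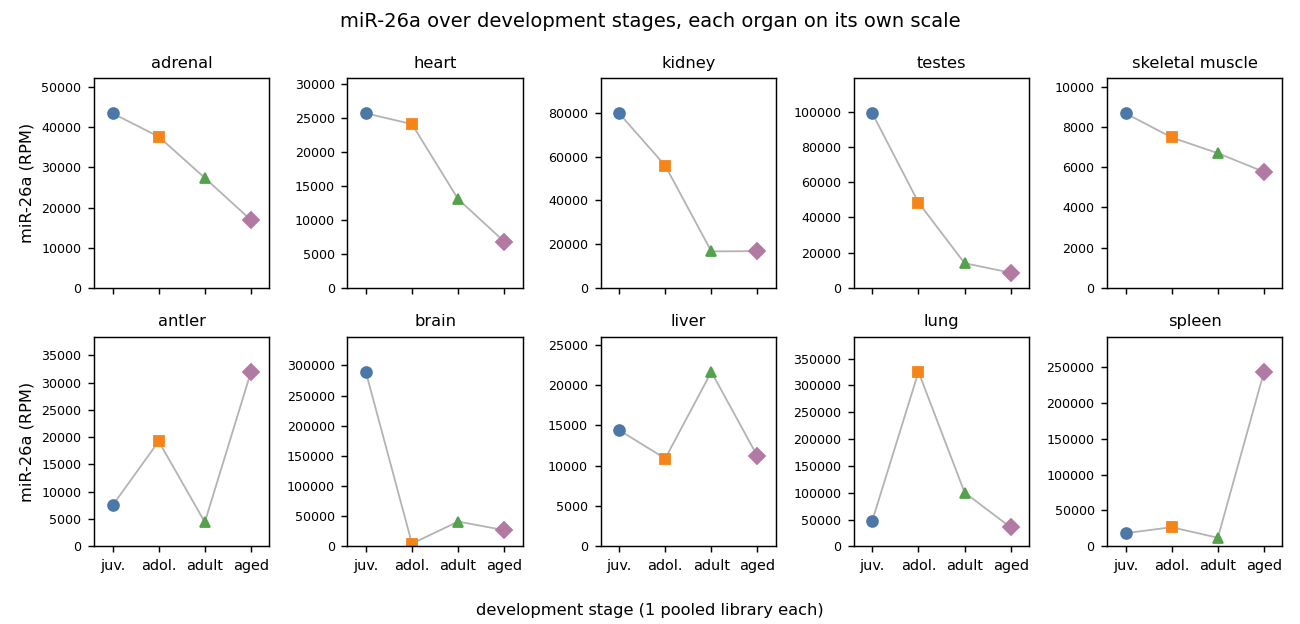
Level of miR-26a at the 4 stages in each organ, in RPM, each panel from 0 on its own scale, with 1 pooled library per point. Adrenal, heart, kidney, testes and skeletal muscle (upper row) have both older libraries below both younger ones, and the lower row shows no such order.

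Other miRNAs were ranked by how closely they followed miR-26a, with doubled names counted once. Pearson's r was taken over the 40 libraries on the TMM-scaled log2 values, and the libraries share depth and scaling, so r is given as a description. The 5 names most like miR-26a were miR-29d-3p (r = 0.69), miR-98 (0.68), miR-151-3p (0.65), miR-30a-5p (0.63) and miR-664b (0.57), against a median of 0.15 over 116 miRNAs. miR-29d-3p rested on only 191 reads in all libraries. miR-98 belongs to the let-7 family and miR-30a-5p to the broadly expressed miR-30 family.

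The ranking changed when the organ mean was taken out of both miRNAs, and r fell for miR-29d-3p (0.52) and miR-151-3p (0.49). The highest r of the deviations were those of miR-1388-5p (0.85), miR-142-5p (0.80), miR-374a (0.80), miR-2285f (0.79) and miR-30a-5p (0.79), with a median of 0.17 over the same 116 miRNAs. Without the 4 far-above libraries (n = 36) these were 0.77, 0.66, 0.69, 0.69 and 0.68. miR-1388-5p was on the same side of its organ mean as miR-26a in 34 of 40 libraries, and miR-374a in 28 of 40. These names were far less abundant than miR-26a, with medians of 15.8 to 138 RPM.

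These names were chosen for deviations that include the far-above libraries and the heart, kidney and adrenal, so their values there describe the choice and are no separate support. On RPM, miR-1388-5p had 807 RPM in the aged spleen, 102 RPM in the adolescence lung, 42.2 RPM in the juvenile brain and 1396 RPM in the juvenile testes. In the juvenile testes miR-142-5p, miR-374a and miR-2285f were not the highest of their organ on RPM. Of the 5 names, 4 were called lower in older heart, kidney and adrenal, where 12.3% of all miRNAs tested were. In limma over the 12 libraries miR-2285f fell by 3.28 (adjusted p = 1.71e-04), miR-142-5p by 2.42 (2.30e-04), miR-374a by 2.31 (3.88e-04) and miR-1388-5p by 1.77 (0.00204) on the log2 scale. miR-30a-5p stood at -0.94 (0.0355) and was not called.

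**Figure D4:**
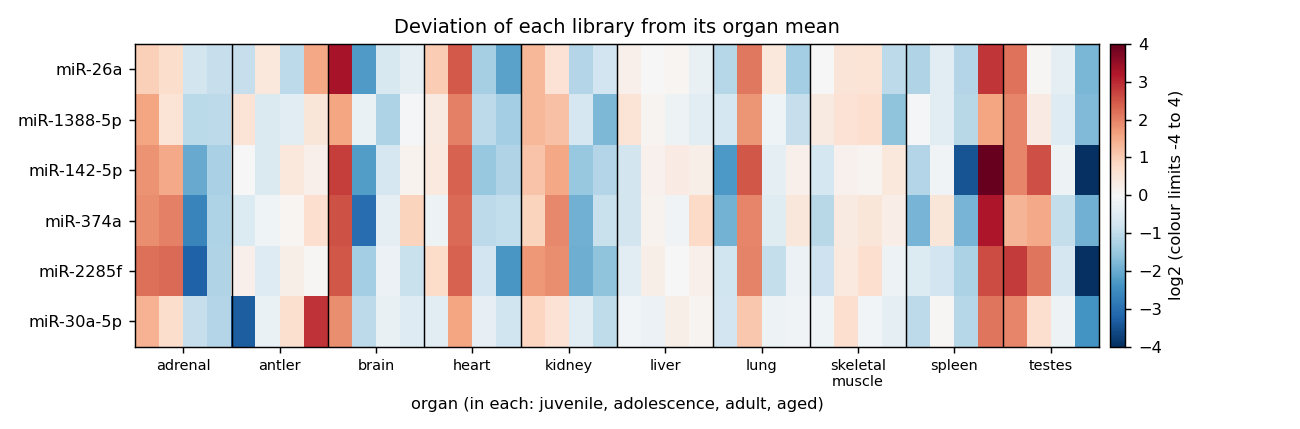
Deviation of each library from the mean of its organ, in log2 of TMM-scaled RPM, for miR-26a and the 5 miRNAs with the most similar deviations; within each organ the columns run from juvenile to aged, and 3 values beyond the colour limits are drawn at the limit. Red columns recur in all rows in the aged spleen, the adolescence lung and the juvenile brain, and blue columns in the adult and aged kidney and adrenal.

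Several other miRNAs are known to repress EZH2, and they were compared with miR-26a as a set of 5 names chosen for that role. miR-101, miR-124a and miR-214 were listed, and miR-138 and miR-124b were not. miR-101 ran from 0 to 14.9 RPM, with too few reads to be tested. At such counts its order between libraries cannot be read, as 1 read stood for up to 23.9 RPM in the testes.

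miR-124a was almost limited to brain, where it had 2446 to 57640 RPM, and miR-214 was led by antler, with 7088 to 16470 RPM. In brain miR-124a was higher than in the other 9 organs by 12.09 on the log2 scale (adjusted p = 5.30e-16, limma; 19.4% of miRNAs were called higher) and miR-214 was lower by -3.95 (9.46e-09, with 21% called lower). In 3 of the 4 libraries in which miR-26a was far above, miR-214 was the lowest of its organ. It had 20.7 RPM in the juvenile brain (others 101 to 258), 480 RPM in the adolescence lung (others 1460 to 3305) and 1228 RPM in the aged spleen (others 3512 to 5503). In the juvenile testes it had 3935 RPM, within the range of the others. RPM is a share of all miRNA reads, and in the 3 libraries miR-26a took 24.3% to 32.5% of the deposited total. miR-26c entered nearly the same reads in that total again. With doubled names counted once, the share of miR-26a in the 3 libraries was 36.0% to 56.9%. How many of all miRNAs tested were the lowest of their organ there was not counted, so no relation of miR-214 to miR-26a is read from this order. miR-124a was highest of its organ in the juvenile brain and lowest in the juvenile testes. The testes values rested on few reads, 37.3 RPM from 20 reads in the juvenile and 89.2 to 358 RPM from 6 to 15 reads in the others. In lung miR-124a stayed at or below 5.76 RPM and in spleen at or below 7.86 RPM. In antler miR-214 was higher by 3.55 (1.41e-07, with 15.3% called higher). Of the 2 names tested over heart, kidney and adrenal, miR-214 rose in older deer, by 1.50 (adjusted p = 0.00360), against a share of 20.8% called higher, and miR-124a did not pass (-0.92, adjusted p = 0.349).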

How the data were processed

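Small RNA libraries of 10 organs at 4 stages (40 libraries, 3 deer pooled in each) were analysed. The authors trimmed the reads, removed other RNA classes, matched the rest to known miRNAs and deposited RPM per miRNA (headed tpm). Processing notes name CASAVA, bcl2fastq 1.8.4 and Bowtie. All 7982 listed values were whole reads within 0.01 reads. A name absent from a library was taken as 0.

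Known names reaching 10 reads in 4 or more libraries were rescaled by TMM (edgeR 4.0.16) and tested on log2(RPM + 1) with limma 3.58.1 and its trend option (R 4.3.3). Stage marks the same deer and entered the organ model as the replicate block. Deviations from organ means correlated at 0.141 on average between libraries of the same stage (180 pairs) and -0.045 between stages. Alternatives were total-read scaling, edgeR and DESeq2 1.42.0 on recovered reads, no read minimum, a pseudocount of 10, merged names, miR-26c for miR-26a, miR-1 left out, and libraries, stages or organs left out. The test script was tested on simulated data. The antler name miR-148c was joined to miR-2957.

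Named besides miR-26 were the 5 miRNAs most like miR-26a by each of 2 correlations and 5 miRNAs known to repress EZH2. Members and lists were chosen with earlier results of these data known.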

Additional observations from a re-analysis of the deposited data

Results flagged for a closer look

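The gap between the highest library of an organ and the next one was divided by the range of the 4 libraries. For miR-26a it was above Dixon's 2-sided 95% critical value for 4 samples in 2 of 10 organs. For normally distributed values chance gives such a gap, at either end of the range, in about 1 in 20 groups. Only the highest end was examined here, so 1 in 20 is too high a rate, and these RPM values span 73.5-fold. In brain the gap was 0.872, from the juvenile library at 289143 RPM, and in spleen 0.936, from the aged library at 243240 RPM. The adolescence lung, at 0.776, stayed below this critical value although it held the highest level of all libraries. On log2 values neither gap passed it, with 0.469 (RPM) and 0.660 (TMM-scaled) in brain and 0.734 and 0.817 in spleen. At this critical value both gaps thus passed on the linear scale only. A 1-sided critical value would be lower and was not applied, either to lung or to the log2 gaps.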

How the results depend on the processing

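Of 972 alternative values, 897 were rated the same as the main value. For a test this meant the same call and, for a contrast, the same direction. For levels, ratios, variance shares and counts of called organs it meant a change within a set limit. All organ contrasts but that of skeletal muscle were uncalled in the main fit. They were rated the same whenever they stayed uncalled with the same sign. Values from miR-26c rest on nearly the same reads, so the total of 897 is no measure of robustness. Scaling to total miRNA reads gave an adjusted p of 0.0228 for organ differences and turned the sign of the difference from the other 9 organs in adrenal (0.366), heart (-0.683), kidney (0.567), testes (0.259) and skeletal muscle (-1.92), the last with a call. edgeR called lung as well (2.26) and DESeq2 liver (-2.41), so 2 organs were called by each. Spleen, at 0.00 in the report, went to -0.107 without miR-1 and to -1.09 without the adolescence lung, aged spleen and juvenile testes. It also lay between 0.621 (total reads) and 1.18 (DESeq2), with edgeR in that range, all uncalled. Without skeletal muscle the adjusted p of organ differences was 0.0757, and without testes the maturity difference of the other organs was 0.0339. The cause was not tested in these cases.

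The ratio to the next library was 12.8 in the juvenile brain, 9.97 in the aged spleen and 4.33 in the juvenile testes with TMM scaling, 7.42, 9.91 and 2.39 with near-identical names merged, and 9.54 in the aged spleen and 1.95 in the juvenile testes without miR-1. The organ share of variance was 40% on RPM and 32.2% without miR-1.

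With single libraries or stages left out in turn, the adjusted p of organ differences ran from 1.18e-04 to 0.127 and the number of organs called from 0 to 2. No organ was called without the adult muscle library or without the adult stage, where muscle had adjusted p of 0.0130 and 0.0654. The maturity difference in heart, kidney and adrenal ran from -2.10 to -1.32. Differences from the other 9 organs ran from -0.732 to 1.58 in brain, from -0.396 to 1.13 in heart, from -2.31 to -1.74 in liver, from 1.50 to 2.74 in lung, from 2.27 to 3.28 in skeletal muscle and from -1.27 (without the aged spleen) to 0.529 in spleen. The ratio to the next library ran from 7.04 to 10.8 in the juvenile brain, 3.24 to 6.76 in the adolescence lung, 9.11 to 13.2 in the aged spleen and 2.05 to 7.10 in the juvenile testes.

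Without the replicate block, that is with no stage term pairing the organs of the same deer, the adjusted p of organ differences was 0.00132, skeletal muscle stood at 3.06 (adjusted p = 8.74e-04) and no call changed. Depth did not limit miR-26a, but it limited miR-29d-3p and miR-101, which had few reads.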
